A study of Mus musculus with 4 samples.

Results

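The 69 genes described here encode the machinery that docks, primes and fuses synaptic vesicles, together with its wider families of membrane trafficking proteins. They were taken by symbol from the 25259 genes of the table: the synaptotagmins (Syt), synapsins (Syn1 to Syn3), vesicle-associated membrane proteins (Vamp), syntaxins (Stx), Snap genes, complexins (Cplx), SV2 proteins (Sv2a to Sv2c), Rab3 GTPases, Rims, Unc13 and syntaxin-binding proteins (Stxbp). Of the 70 symbols that matched, 69 had a mean of at least 10 normalised reads over the 46 libraries. Syt8, at a mean of 1.77, fell below that limit, and Stx11 at 10.4 and Stx19 at 12.96 lay just above it. The set comprised 16 synaptotagmins, 15 syntaxins, 7 Vamp, 5 Snap and 5 Stxbp genes, 4 each of Rab3, Rims and Unc13, and 3 each of Cplx, Sv2 and Syn. Some matched by name alone: Snap91 encodes a clathrin assembly protein and not a SNARE (a fusion protein that pairs across 2 membranes), and syntaxins such as Stx5a and Stx18 act in the early secretory pathway.

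Transcripts were measured by RNA sequencing in the dorsal striatum of 8-week-old C57BL/6 mice, either wild-type or homozygous for a humanised version of Foxp2 (Foxp2hum/hum), a forkhead transcription factor gene. Laser capture took tissue from the dorsomedial (DMS) or dorsolateral (DLS) striatum of frozen brains, so each library holds every cell type of the captured area. There were 11 libraries of wild-type DMS, 11 of wild-type DLS, 12 of Foxp2hum/hum DMS and 12 of Foxp2hum/hum DLS. The sources used here do not tie libraries to animals, and p-values therefore measure the spread between libraries, which may in part be technical.

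At a synapse, a vesicle fuses when a SNARE on the vesicle (synaptobrevin, the product of Vamp2 or Vamp1) zips together with 2 SNAREs of the plasma membrane, a syntaxin and SNAP-25. Munc13 (Unc13) and RIM proteins prepare the vesicle, complexins hold and assist the assembled complex, and synaptotagmins bind calcium and trigger fusion. In the striatum these proteins serve the local terminals of medium spiny neurons and interneurons, while most glutamatergic and dopaminergic terminals belong to neurons whose cell bodies, and most of whose messenger RNA, lie elsewhere.

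Promoters are shown for 3 genes whose levels differed between the regions, Syt10 (higher in DMS) and Syt2 and Vamp1 (lower in DMS). Each run of 300 bases, from RefSeq on build GRCm38.p6, covers 250 bases before to 50 bases after the annotated start. It is written 5′ to 3′ on the gene's own strand, in lower case with matches to the GC box GGGCGG, on either strand, in capitals.
Syt10, chr15:89841811-89842110, minus strand: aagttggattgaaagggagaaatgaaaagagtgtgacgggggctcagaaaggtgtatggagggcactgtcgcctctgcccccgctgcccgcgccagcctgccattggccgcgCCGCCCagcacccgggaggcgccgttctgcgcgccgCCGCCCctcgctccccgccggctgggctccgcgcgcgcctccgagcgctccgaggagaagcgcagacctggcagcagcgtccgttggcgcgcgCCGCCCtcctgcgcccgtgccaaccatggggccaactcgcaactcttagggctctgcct
Syt2, the first of 2 starts, chr1:134646362-134646661, plus strand: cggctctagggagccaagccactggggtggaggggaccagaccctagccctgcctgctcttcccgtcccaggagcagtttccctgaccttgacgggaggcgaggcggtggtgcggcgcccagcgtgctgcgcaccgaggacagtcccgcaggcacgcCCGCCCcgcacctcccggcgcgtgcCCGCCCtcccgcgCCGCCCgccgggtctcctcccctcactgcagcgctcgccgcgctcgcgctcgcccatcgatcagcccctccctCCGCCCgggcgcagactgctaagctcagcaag
Vamp1, chr6:125215331-125215630, plus strand: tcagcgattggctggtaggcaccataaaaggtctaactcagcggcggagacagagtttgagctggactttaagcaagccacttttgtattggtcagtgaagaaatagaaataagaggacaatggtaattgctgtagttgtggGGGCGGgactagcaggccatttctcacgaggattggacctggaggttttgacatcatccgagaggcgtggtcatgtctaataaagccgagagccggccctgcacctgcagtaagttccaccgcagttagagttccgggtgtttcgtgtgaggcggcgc
The Syt10 promoter held 3 GC boxes, this Syt2 promoter 4 and the Vamp1 promoter 1. None of these 3 promoters held TATAAA, the cAMP response element TGACGTCA or the forkhead core TGTTTAC. Over all the genes of the set, 53 matched the promoter table by symbol, with 67 promoters. GGGCGG was present in 68.7% of these promoters, against 35.7% of all 32851 promoters of the same length. The set's promoters also had more G and C, at a median of 62.3% against 52.7%, and the letters of a GC box follow base composition. TGTTTAC was present in 2.99% of the set's promoters and in 3.65% of all, TGACGTCA in 1.49% and 1.79%, and TATAAA in 7.46% and 13.6%. Both strands were searched, none of these 4 motifs contains another, and a match is a run of letters and not a binding site.

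Between 16.79 and 41.01 M reads (M for mega) were recovered from each library, and mitochondrially encoded genes took 11.9% to 30.7% of them. Vamp2, the marker of the set, was read in every library, at 9582 to 14603 normalised reads in wild-type DMS and 10985 to 15405 in wild-type DLS. Per kilobase of exon, high means over all libraries were those of Cplx2 at 5239 normalised reads, Cplx1 at 3273, Vamp2 at 3139.7, Snap25 at 2884, Rab3a at 2247 and Syt11 at 2138. Syt5 at 980.4 and Syt1 at 965 lay close together. These levels per length can include reads from introns and overlapping genes. The libraries numbered 70 (wild-type DLS) and 72 (wild-type DMS), with mitochondrial shares of 18.2% and 11.9%, stood apart in an earlier look at these data, and the counts below are also given without them.

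The first comparison asked which release genes differed between the subdivisions in wild-type mice. Of the 69 genes, 16 passed an adjusted p of 0.05 (limma, Benjamini-Hochberg over 19561 genes): 6 were higher in DMS and 10 lower. Syt10, Stxbp6, Sv2b, Syt5, Stx2 and Stx1a were higher. Syt2, Vamp1, Syt3, Snap25, Syt13, Stx6, Cplx1, Rab3b, Sv2a and Rab3a were lower. Over all genes tested, 8.54% were called higher in DMS and 8.72% lower, against 8.70% and 14.5% of these 69. The median log2 difference was -0.073 for the 69 genes and 0.0067 for all genes. With quantile normalisation 4 were called higher and 6 lower, or 5.80% and 8.70% of the set beside 8.31% and 8.25% of all genes. Without libraries 70 and 72 there were 17 calls, 7 higher and 10 lower. That is 10.1% and 14.5% of the set, beside 8.22% and 8.37% of all genes in the same fit.

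The second comparison asked the same in Foxp2hum/hum mice. It compares no library of the first, but 1 fit over all 46 libraries gave both, with a shared estimate of the spread. Here 18 of 69 genes passed, 5 higher in DMS and 13 lower, which is 7.25% and 18.8%, beside 9.33% and 8.82% of all genes tested. The median log2 difference was -0.032 for the set and 0.018 for all genes. With quantile normalisation 5 were higher and 9 lower, or 7.25% and 13.04% beside 8.79% and 8.60%. Genes called in both genotypes numbered 13, all in the same direction in both, 4 higher and 9 lower in DMS. Stxbp6, Stx2 and Rab3b passed in wild-type alone, and Syt17, Cplx3, Syt14, Stx4a and Vamp2 in Foxp2hum/hum alone, though no difference between the genotypes passed for any of them (below). Without libraries 70 and 72, which are wild-type, the count was again 18, 5 higher and 13 lower. All genes in that fit stood at 9.71% higher and 9.12% lower, and the set at 7.25% and 18.8%. In neither genotype did 48 genes pass, and for 34 of these the 95% interval lay within 1.5-fold either way in both. These counts in both and in neither genotype were not taken over all genes, so no trait of the set can be read from them.

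Among the calcium sensors, Syt10 showed the widest regional difference of the 69 genes. It encodes a synaptotagmin known in olfactory bulb neurons, where it serves the release of insulin-like growth factor 1, and lies at chr15:89612824-89672291 (mm9). The lowest, median and highest libraries held 58.3, 111 and 128 normalised reads in wild-type DMS and 5.93, 14.1 and 28.6 in wild-type DLS. In Foxp2hum/hum they held 50.4, 104 and 154 in DMS and 0, 11.5 and 43.8 in DLS. Every DMS library of a genotype was above every DLS library of it. Such separation of the groups was seen for 1.95% of all genes in wild-type and for 2.2% in Foxp2hum/hum. The log2 difference was 2.82 ± 0.34 (SE) in wild-type, or 7.08-fold (adjusted p = 6.01e-09, limma), and 3.06 ± 0.33 in Foxp2hum/hum, or 8.36-fold (adjusted p = 1.77e-10). In bulk tissue, fewer cells of a type and less RNA per cell cannot be told apart, here and for every gene below.

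Beside Syt10, markers of cells near the ventricle were also higher in DMS. All 4 neuroblast markers (Dcx, Sox11, Dlx2 and Cd24a) passed in both genotypes, with a summed level of 643 to 2081 normalised reads in wild-type DMS against 208 to 354 in DLS, and 542 to 2189 against 169 to 312 in Foxp2hum/hum. Of 6 ependymal and choroid plexus markers, 5 passed in each genotype, and their sum was 176 to 10300.2 in wild-type DMS and 50.7 to 232 in DLS, 382 to 6777 in Foxp2hum/hum DMS and 52.1 to 142 in DLS. No marker of either list was at 0 in every library. The ependymal sums overlapped between regions in wild-type and not in Foxp2hum/hum, and the neuroblast sums overlapped in neither. With the level of Ttr, the main choroid plexus transcript, as a covariate, the log2 difference of Syt10 was 2.99 for wild-type and 3.30 for Foxp2hum/hum. Ttr itself followed region, so such a fit cannot part the 2. Its medians in DMS and DLS were 40.8 and 1.09 normalised reads in wild-type and 659 and 1.78 in Foxp2hum/hum. The part of choroid plexus, ependyma or neuroblasts in the Syt10 difference was not tested.

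Syt5, a calcium-binding synaptotagmin of secretory vesicles, was modestly higher in DMS. Wild-type libraries held 1754, 1898 and 2199 normalised reads (lowest, median and highest) in DMS and 1307, 1486 and 1898 in DLS. Foxp2hum/hum libraries held 1589, 1893 and 2235 in DMS and 924, 1544 and 1928 in DLS. The groups overlapped in both genotypes, with a 1.28-fold difference in wild-type (log2 0.36 ± 0.080 SE, adjusted p = 0.000768 by limma) and a 1.27-fold difference in Foxp2hum/hum (log2 0.35 ± 0.077, adjusted p = 0.000564). Syt17, a small member without a membrane anchor, was read at 11.1 to 55.7 in wild-type DMS and 2.15 to 40.4 in DLS, and at 18.7 to 68.7 in Foxp2hum/hum DMS and 0.991 to 41.8 in DLS. Its log2 difference passed in Foxp2hum/hum at 1.19 ± 0.36 (adjusted p = 0.0121) and was 0.86 ± 0.37 in wild-type (adjusted p = 0.108).

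**Figure D1:**
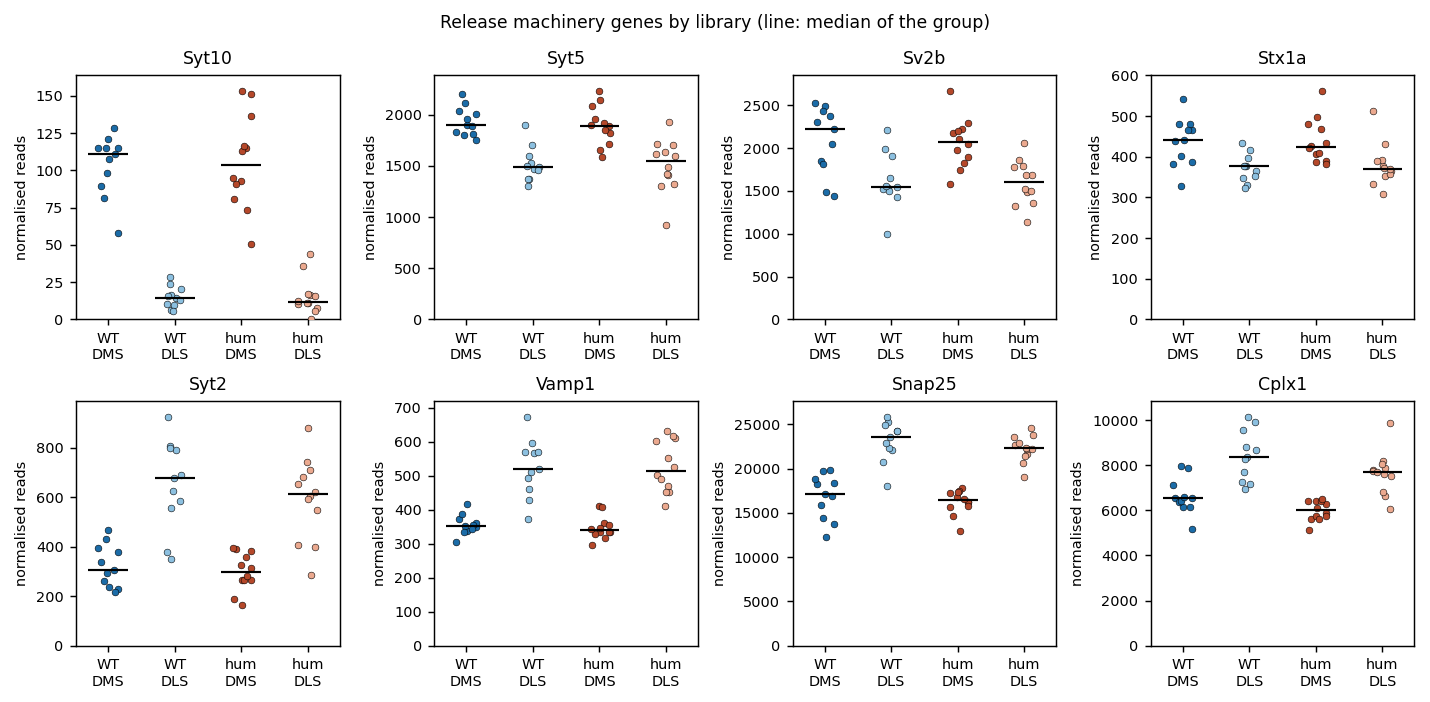
Normalised reads (linear vertical axis from 0) of 8 release genes in each library of the 4 groups, wild-type (WT) and Foxp2hum/hum (hum) in DMS and DLS; points are libraries and the black line is the group's median. Syt10, Syt5, Sv2b and Stx1a sit higher in DMS and Syt2, Vamp1, Snap25 and Cplx1 lower, and for Syt10 the DMS and DLS libraries of a genotype do not overlap.

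Syt2, the fast calcium sensor of rapidly firing neurons and of many inhibitory terminals, was lower in DMS. It lies at chr1:136605877-136649726 (mm9). The lowest, median and highest values were 217, 306 and 469 normalised reads in wild-type DMS and 348, 677 and 924 in DLS, and 165, 298 and 395 in Foxp2hum/hum DMS and 287, 614 and 877 in DLS. The medians differed by about as much in both genotypes, while the ranges overlapped. Its level was lower in wild-type DMS (log2 -0.997 ± 0.17 SE, adjusted p = 1.46e-05, limma) and 1.96-fold lower in Foxp2hum/hum DMS (log2 -0.97 ± 0.16, adjusted p = 9.85e-06). Syt1, the corresponding sensor of most forebrain terminals, had medians of 8408 in wild-type DMS and 8325 in DLS. The 95% interval of its log2 difference was -0.20 to 0.20 in wild-type and -0.19 to 0.19 in Foxp2hum/hum.

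A further 3 synaptotagmins were lower in DMS in at least 1 genotype. Syt3, a high-affinity calcium sensor known for the uptake of AMPA receptors after synaptic activity, held 398, 499.8 and 610.2 normalised reads (lowest, median and highest) in wild-type DMS and 526, 731 and 861 in DLS. In Foxp2hum/hum it held 339, 471 and 600.0 in DMS and 543, 713 and 846 in DLS. The groups overlapped only at their edges, and the log2 difference was -0.53 ± 0.090 (SE) in wild-type (adjusted p = 1.16e-05, limma) and -0.57 ± 0.086 in Foxp2hum/hum (adjusted p = 1.3e-06). The overlapping gene 1700008O03Rik amounts to 15.3% of the value of Syt3. Syt13, which lacks calcium binding, ranged over 272 to 395 in wild-type DMS and 299.7 to 554 in DLS, and over 229 to 367 in Foxp2hum/hum DMS and 355 to 477 in DLS. Its log2 difference was -0.44 ± 0.094 in wild-type (adjusted p = 0.000337) and -0.44 ± 0.090 in Foxp2hum/hum (adjusted p = 0.00019). Syt14, another member that does not depend on calcium, passed in Foxp2hum/hum at -0.60 ± 0.22 (adjusted p = 0.0466) and stood at -0.54 ± 0.23 in wild-type (adjusted p = 0.098). It was read at only 43.7 and 57.7 normalised reads at the median in Foxp2hum/hum DMS and DLS, and its call was lost under 7 of 17 alternatives and without any of 22 single libraries. Of the other synaptotagmins, Syt11 at -0.21 and -0.22 (wild-type and Foxp2hum/hum) and Syt7, the sensor of slow release, at 0.32 and 0.34 did not pass.

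On the vesicle side of the SNARE complex, Vamp1 was lower in DMS. Vamp1 encodes synaptobrevin 1, the vesicle SNARE of motor and many fast-firing neurons, and lies at chr6:125165569-125194561 (mm9). The lowest, median and highest libraries held 306, 352 and 418 normalised reads in wild-type DMS and 374, 520.4 and 674 in DLS. In Foxp2hum/hum they held 295, 340.0 and 410.0 in DMS and 411, 514 and 633 in DLS, where every DMS library lay below every DLS library, while the wild-type ranges overlapped. The difference was 1.46-fold in wild-type (log2 -0.55 ± 0.082 SE, adjusted p = 1.05e-06, limma) and 1.51-fold in Foxp2hum/hum (log2 -0.59 ± 0.079, adjusted p = 6.36e-08).

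Tapbpl, a gene related to tapasin that lies within the span of Vamp1 on the opposite strand, amounts to 25.8% of its value. With the reads of Tapbpl subtracted, Vamp1 had medians of 224 in wild-type DMS and 411 in DLS, and 226 in Foxp2hum/hum DMS and 414 in DLS. The log2 difference of Vamp1 was then -0.83 in wild-type and -0.94 in Foxp2hum/hum.

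Vamp2, synaptobrevin 2, the main vesicle SNARE of the forebrain, lay near the threshold. Its lowest, median and highest values were 9582, 11227 and 14603 normalised reads in wild-type DMS, 10985, 12957 and 15405 in DLS, 9101, 10614 and 11915 in Foxp2hum/hum DMS and 10086, 12191 and 13588 in DLS. The groups overlapped in each genotype. The log2 difference was -0.19 ± 0.070 (SE) in wild-type, which did not pass (adjusted p = 0.0505, limma), and -0.20 ± 0.067 in Foxp2hum/hum, which did (adjusted p = 0.0326). The latter call was lost with quantile normalisation (log2 -0.0069, adjusted p = 0.971), with Ttr as a covariate (log2 -0.19, adjusted p = 0.169), and without any 1 of libraries 42, 46, 74, 83, 92, 27, 49, 64 or 67 (adjusted p up to 0.0632). Of the other Vamp genes, none of the 5 (Vamp3, Vamp4, Vamp5, Vamp7 and Vamp8) passed in either genotype. Vamp4 had medians of 1158 and 1145 in wild-type DMS and DLS.

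Among the SNAREs of the target membrane, Snap25 was lower in DMS. Its product supplies a pair of the helices of the fusion complex, and the gene lies at chr2:136539189-136608164 (mm9). The lowest, median and highest libraries held 12254, 17152 and 19856 normalised reads in wild-type DMS and 18060.0, 23603 and 25835 in DLS, and 12915, 16393 and 17853 in Foxp2hum/hum DMS and 19055, 22279 and 24565 in DLS. In Foxp2hum/hum the regions did not overlap, and in wild-type they did. The level in DMS was 1.38-fold lower in wild-type (log2 -0.46 ± 0.074 SE, adjusted p = 3.59e-06, limma) and 1.37-fold lower in Foxp2hum/hum (log2 -0.46 ± 0.071, adjusted p = 1.87e-06). With quantile normalisation the log2 difference of Snap25 came to -0.22 and -0.21 in the respective genotypes and no longer passed (adjusted p = 0.157 and 0.164). Its relatives Snap23, Snap29 and Snap47 and the clathrin adaptor gene Snap91 did not pass in either genotype, with Snap47 at -0.086 and -0.075.

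Of the 15 syntaxins, 2 were higher and 1 lower in wild-type DMS, and 1 higher and 2 lower in Foxp2hum/hum DMS. Stx6, a SNARE of the trans-Golgi network and endosomes, was the most clearly separated: it held 810.0, 967 and 1059 normalised reads (lowest, median and highest) in wild-type DMS and 1106, 1240.3 and 1478 in DLS, without overlap. In Foxp2hum/hum it held 790.0, 988 and 1128 in DMS and 1004, 1239 and 1572 in DLS, with overlap. The log2 difference of Stx6 was -0.37 ± 0.067 (SE, adjusted p = 4.09e-05, limma) and -0.39 ± 0.065 (adjusted p = 6.75e-06) in the genotypes.

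Stx1a, a syntaxin of the synaptic plasma membrane, was higher in DMS at 0.22 ± 0.079 (SE) in wild-type (adjusted p = 0.0415, limma) and 0.21 ± 0.076 in Foxp2hum/hum (adjusted p = 0.0488). Its libraries ranged over 328 to 542 normalised reads in wild-type DMS and 322 to 434 in DLS, and over 382 to 563 in Foxp2hum/hum DMS and 309.5 to 512 in DLS. These ranges overlapped, and the call was lost under 5 of 17 alternatives in wild-type and 6 of 17 in Foxp2hum/hum, and without any of 13 and 30 single libraries respectively.

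Stx2, a syntaxin of non-synaptic plasma membrane, passed in wild-type at 0.30 ± 0.094 (adjusted p = 0.019, limma) and stood at 0.19 ± 0.090 in Foxp2hum/hum (adjusted p = 0.14). The wild-type call was lost without library 26 (adjusted p = 0.0556) and under 4 of 17 alternatives, which were quantile normalisation, the compared groups only, and Ttr or oligodendrocyte markers as a covariate (adjusted p up to 0.168, log2 at least 0.20). Stx4a, a plasma membrane syntaxin that also serves insertion of receptors, passed in Foxp2hum/hum at -0.24 ± 0.076 (adjusted p = 0.0212), a call lost with Ttr or cortical markers as a covariate although the log2 difference was still -0.20 with either (adjusted p = 0.195 and 0.0554), and stood at -0.16 ± 0.079 in wild-type (adjusted p = 0.16). Reads at the start of Stx4a can be shared with an overlapping gene. Stx3, Stx5a, Stx7, Stx8, Stx11, Stx12, Stx16, Stx17, Stx18 and Stx19, most of which act in endosomes, the Golgi or other secretory routes, passed in neither genotype.

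Complexin 1, which clamps and then assists the SNARE complex, was lower in DMS. Cplx1 (chr5:108947573-108979043, mm9) held 5178, 6551 and 7973 normalised reads (lowest, median and highest) in wild-type DMS and 6957, 8354 and 10149 in DLS. In Foxp2hum/hum it held 5146, 5997 and 6491 in DMS and 6060.0, 7723 and 9875 in DLS. The ranges overlapped, and the difference was 1.27-fold in both genotypes (log2 -0.35 ± 0.074 SE, adjusted p = 0.000419 in wild-type, and -0.35 ± 0.071, adjusted p = 0.000194 in Foxp2hum/hum, limma). With quantile normalisation the log2 difference came to -0.20 and -0.19, with adjusted p = 0.0960 and 0.0943.

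Cplx2, the other main complexin of the brain and the most abundant gene of the set per exon length, pointed the same way at -0.33 ± 0.16 in wild-type and -0.32 ± 0.15 in Foxp2hum/hum without passing (adjusted p = 0.17 and 0.151, limma). Its libraries spread widely, from 12525 to 37270.1 normalised reads in wild-type DMS and from 17270.4 to 40833 in DLS. Cplx3, known from retinal ribbon synapses and deep cortical neurons, was barely read, with medians of 7.07 in wild-type DMS, 9.67 in DLS, 7.79 in Foxp2hum/hum DMS and 16.6 in DLS. It passed in Foxp2hum/hum at -1.39 ± 0.39 (adjusted p = 0.00741) and stood at -0.56 ± 0.41 in wild-type (adjusted p = 0.383). Cortical excitatory markers were also low and uneven, with Slc17a7 at 28.8 to 215 in Foxp2hum/hum DMS and 40.2 to 864 in DLS. None of the 5 cortical markers tested passed between the regions, but in Foxp2hum/hum all 5 lay on the lower side in DMS, with a median log2 difference of -0.61 (-0.82 to -0.38), against -0.078 in wild-type. Their part in the Cplx3 difference was not tested beyond a covariate fit, in which its call held.

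Among the proteins that bind syntaxins, Stxbp6 (amisyn, a brake on SNARE assembly) was higher in wild-type DMS. It held 216, 257 and 315 normalised reads (lowest, median and highest) there and 132, 172 and 254 in DLS, with overlap. In Foxp2hum/hum it held 88.5, 219 and 288 in DMS and 84.5, 174 and 267 in DLS. The log2 difference was 0.58 ± 0.15 (SE, adjusted p = 0.00519, limma) in wild-type and 0.25 ± 0.15 in Foxp2hum/hum (adjusted p = 0.278). Stxbp2, Stxbp4 and Stxbp5, whose product tomosyn restrains SNARE assembly, passed in neither genotype.

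The SV2 glycoproteins of the vesicle membrane went in opposite directions. Sv2b was higher in DMS, with lowest, median and highest values of 1445, 2222 and 2528 normalised reads in wild-type DMS and 998, 1546 and 2213 in DLS, and 1582, 2075 and 2672 in Foxp2hum/hum DMS and 1133, 1603 and 2064 in DLS. The ranges overlapped, with log2 differences of 0.37 ± 0.11 (SE, adjusted p = 0.0121, limma) and 0.37 ± 0.10 (adjusted p = 0.00678). With Ttr as a covariate Sv2b differed by 0.32 in wild-type and 0.30 in Foxp2hum/hum on the log2 scale, values close to those without it, and no longer passed (adjusted p = 0.0797 and 0.143). Sv2a, the form found at most synapses and the binding site of the drug levetiracetam, was lower in DMS.

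Sv2a held 1877, 2856 and 3483 normalised reads (lowest, median and highest) in wild-type DMS and 2531, 3588 and 3862 in DLS, and 1944, 2527 and 2959 in Foxp2hum/hum DMS and 2425, 3372 and 3898 in DLS. Its log2 difference was -0.31 ± 0.095 (SE, adjusted p = 0.0159, limma) in wild-type and -0.38 ± 0.091 in Foxp2hum/hum (adjusted p = 0.00135). The wild-type call for Sv2a was lost with quantile normalisation and with oligodendrocyte markers as a covariate (adjusted p = 0.128 at most). Sv2c, the form concentrated in the basal ganglia, had 95% intervals of -0.39 to 0.67 in wild-type and -0.41 to 0.60 in Foxp2hum/hum, and its libraries ran from 325 to 1202 normalised reads within wild-type DMS alone.

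Of the Rab3 GTPases, which tether vesicles to the active zone, Rab3a was lower in DMS at -0.22 ± 0.077 (SE) in wild-type (adjusted p = 0.036, limma) and -0.24 ± 0.073 in Foxp2hum/hum (adjusted p = 0.016). Its medians were 4670.5 normalised reads in wild-type DMS and 5417 in DLS, and 4672 in Foxp2hum/hum DMS and 5479 in DLS. Each Rab3a call was lost under 3 of 17 alternatives, among them quantile normalisation and the Ttr covariate, and the wild-type call was lost without any 1 of libraries 14, 38, 44, 51, 34, 65 or 93 (adjusted p up to 0.0729). Rab3b, a form with a more restricted distribution, passed in wild-type at -0.34 ± 0.11 (adjusted p = 0.0218, or 0.0574 with quantile normalisation) and stood at -0.22 ± 0.10 in Foxp2hum/hum (adjusted p = 0.14). Rab3c and Rab3d did not pass.

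No Rims or Unc13 gene of the set passed in either genotype. For the RIM scaffold, Rims1 stood at -0.37 ± 0.16 (SE) in wild-type (adjusted p = 0.104, limma) and -0.26 ± 0.15 in Foxp2hum/hum, and Rims3 at 0.087 ± 0.15 and 0.075 ± 0.14. For the priming factors, Unc13a, the main Munc13 of forebrain synapses, stood at -0.18 ± 0.16 and -0.054 ± 0.15 and Unc13c at 0.25 ± 0.24 and 0.18 ± 0.23. Synapsins, which hold vesicles in the reserve pool, did not pass either, with Syn1 at -0.23 and -0.26 and Syn2 at 0.074 and 0.028. A p that misses the threshold does not show equal levels: the interval of Unc13c in wild-type ran from -0.24 to 0.74. AC153907.1, nested in Syn2, amounts to 29.9% of the Syn2 value, and with it subtracted Syn2 had medians of 2153 and 1915 normalised reads in wild-type DMS and DLS, a log2 difference of 0.15 that did not pass (adjusted p = 0.166). In Foxp2hum/hum the subtracted medians of Syn2 were 1974 and 1785, also a difference of 0.15 (adjusted p = 0.151).

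**Figure D2:**
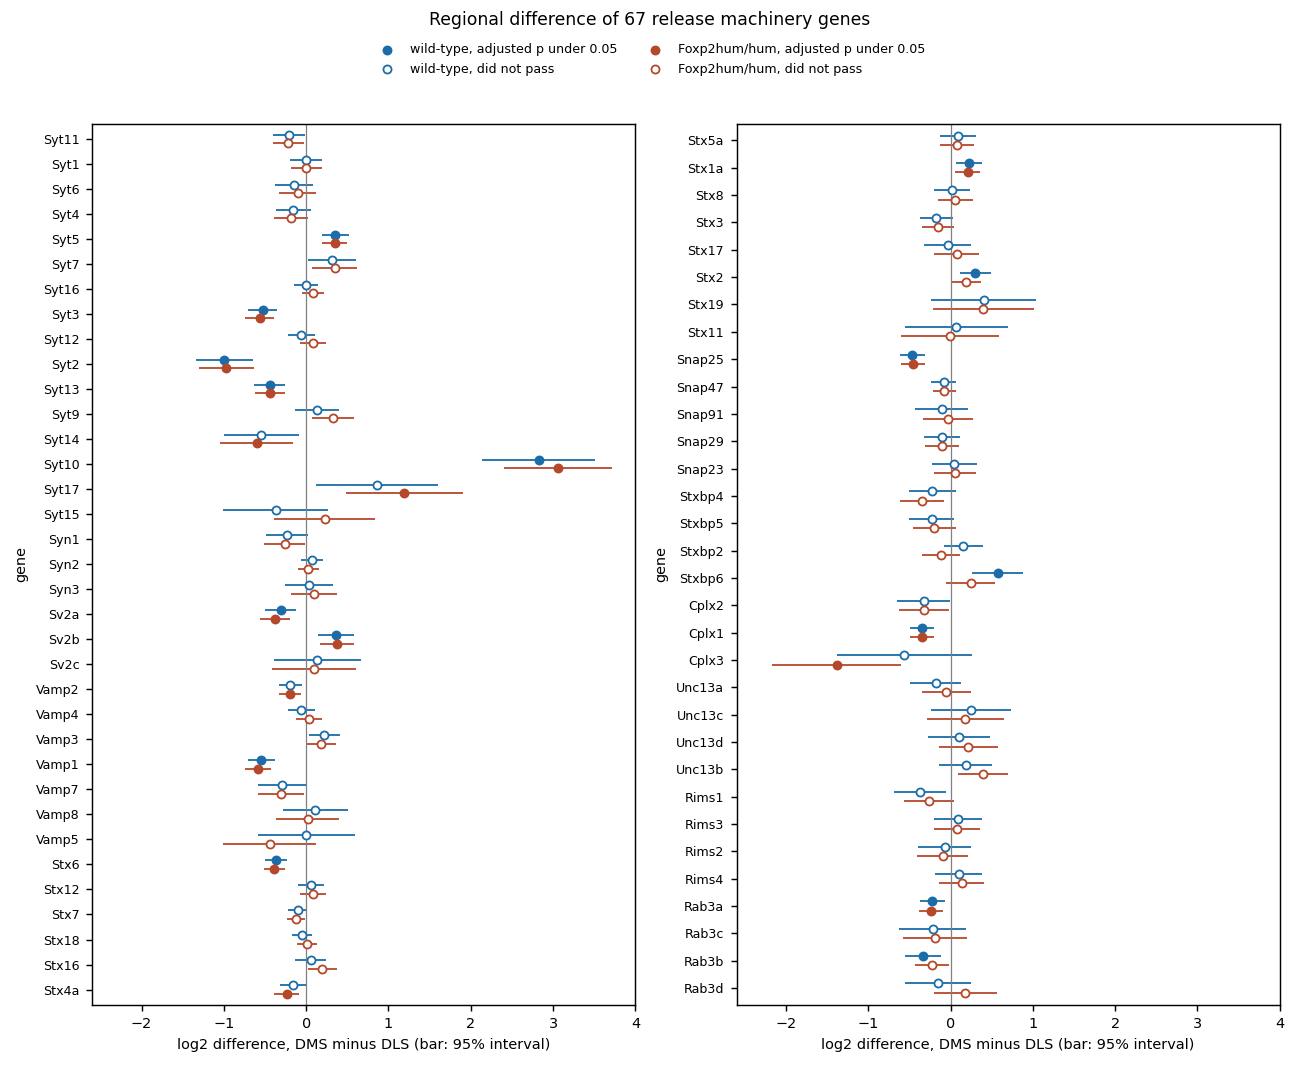
Log2 difference, DMS minus DLS (horizontal axis), of 67 of the genes in wild-type (blue) and Foxp2hum/hum (red), grouped by family; bars are 95% intervals from limma and filled points passed an adjusted p of 0.05. Syt10 at 2.82 and 3.06 stands far to the right, Syt2 at -0.997 and -0.97 to the left, and most genes lie within 0.5 of 0 in both genotypes.

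Within libraries, the balance between related genes also differed by region. These pairs were chosen after their values were seen, so the ratios are a description with no test. Syt2 over Syt1 was 0.0299, 0.0380 and 0.0545 (lowest, median and highest) in wild-type DMS and 0.0574, 0.0782 and 0.0961 in DLS, and 0.0218, 0.0397 and 0.0458 in Foxp2hum/hum DMS and 0.0481, 0.0788 and 0.0884 in DLS. The DMS and DLS ratios did not overlap in either genotype, although the Syt2 values themselves did. Sv2b over Sv2a was 0.496, 0.783 and 0.960 in wild-type DMS and 0.378, 0.487 and 0.602 in DLS, with overlap, and 0.733, 0.808 and 0.924 in Foxp2hum/hum DMS and 0.364, 0.469 and 0.696 in DLS, without overlap. Vamp1 over Vamp2 overlapped between regions in both genotypes, with medians of 0.0318 and 0.0391 in wild-type DMS and DLS and 0.0326 and 0.0449 in Foxp2hum/hum. Cplx1 over Cplx2 had medians from 0.263 in wild-type DMS to 0.307 in Foxp2hum/hum DLS, and its ranges overlapped throughout.

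**Figure D3:**
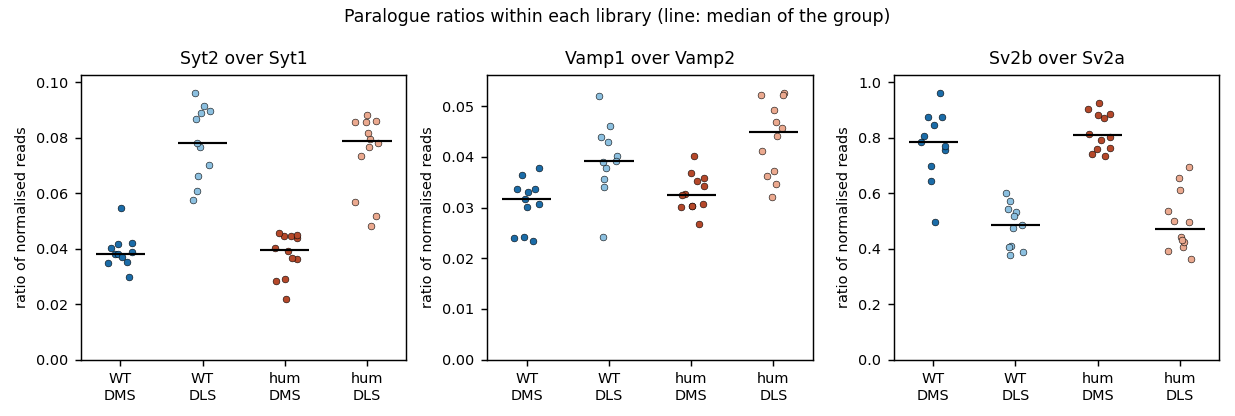
Ratios of normalised reads within each library (vertical axes, from 0) for Syt2 over Syt1, Vamp1 over Vamp2 and Sv2b over Sv2a in the 4 groups; points are libraries and the line is the median. For Syt2 over Syt1 every DMS library lies below every DLS library of its genotype, and for Sv2b over Sv2a the medians are 0.783 and 0.808 in DMS against 0.487 and 0.469 in DLS.

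Markers of the cells that could carry these transcripts differed between the regions as well. Pvalb, the marker of fast-spiking interneurons, whose terminals are known to use Syt2 and Vamp1, held 44.04, 68.4 and 103 normalised reads (lowest, median and highest) in wild-type DMS and 174, 323 and 541 in DLS, and 24.3, 44.7 and 95.2 in Foxp2hum/hum DMS and 159.9, 275 and 604 in DLS. It was lower in DMS by 4.51-fold in wild-type (adjusted p = 5.22e-12, limma) and 6.36-fold in Foxp2hum/hum (adjusted p = 1.3e-15). Over the GABAergic interneuron list (Pvalb, Sst, Npy, Pthlh and Kit), 1 of 5 was lower and 1 higher in wild-type and 1 lower in Foxp2hum/hum, with summed levels of 2827 to 3971 and 2222 to 4807 in wild-type DMS and DLS and 2238 to 4481 and 1284 to 5683 in Foxp2hum/hum. Both cholinergic markers tested, Chat and Slc5a7, were lower in DMS in both genotypes, with sums of 424 to 1023 and 938 to 1558 in wild-type and 518 to 785 and 890.3 to 1480.2 in Foxp2hum/hum.

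Of 9 medium spiny neuron markers, 6 were lower in DMS in each genotype. Their sum ran from 90293 to 110755 normalised reads in wild-type DMS against 128672 to 153362 in DLS, and from 78647 to 110658 against 112656 to 149732 in Foxp2hum/hum, with no overlap in either. The summed level of the 52 release genes that overlap no other gene by 10% or more had medians of 108443 in wild-type DMS, 130887 in DLS, 103987 in Foxp2hum/hum DMS and 122285 in DLS. These sums of release genes overlapped between the regions in both genotypes. Of the other lists, 2 of 7 oligodendrocyte markers were higher in wild-type DMS and 0 in Foxp2hum/hum, 2 of 5 astrocyte markers were higher in each genotype, and 1 of 4 septal markers was lower in wild-type DMS. None of the 4 microglial or the 4 endothelial markers passed in either genotype. The part of any of these cell types in the differences of Snap25, Cplx1, Sv2a, Syt2 or Vamp1 was not tested.

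Other genes of the vesicle cycle, from a list of 51 drawn up with earlier results of these data known, were also called in both directions. Of the 48 tested, 3 were higher and 12 lower in DMS in each genotype, or 6.25% and 25% of the list, beside 8.54% and 8.72% of all genes in wild-type and 9.33% and 8.82% in Foxp2hum/hum, with a median log2 difference of -0.12 in wild-type and -0.10 in Foxp2hum/hum. Cadps, a priming factor of dense-core vesicles, held 614, 764 and 981 normalised reads (lowest, median and highest) in wild-type DMS and 1042, 1245 and 1761 in DLS. Those ranges did not overlap, and its log2 differences were -0.71 ± 0.084 (SE, adjusted p = 4.23e-09, limma) and -0.57 ± 0.081 (adjusted p = 2.73e-07). Rph3a, rabphilin, an effector of Rab3 proteins, was lower at -1.13 ± 0.15 and -1.09 ± 0.14 (adjusted p = 4.02e-08 and 3.18e-08). Slc17a8, the vesicular glutamate transporter of cholinergic interneurons, was lower at -1.18 ± 0.16 and -0.89 ± 0.15 (adjusted p = 7.67e-08 and 9.34e-06). Prrt2, a SNARE-binding membrane protein, was lower at -0.43 and -0.45.

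The 3 higher genes were Synpr, Lin7a and Cadps2 in both genotypes. Synpr, synaptoporin of the vesicle membrane, held 1326, 2717 and 3815 normalised reads (lowest, median and highest) in wild-type DMS and 963, 1419 and 1667 in DLS. In Foxp2hum/hum it held 2532, 2759 and 3179.6 in DMS and 1142, 1387 and 2225 in DLS, and there the regions did not overlap. Its log2 differences were 0.94 ± 0.11 (SE, adjusted p = 5.45e-09, limma) and 0.98 ± 0.11 (adjusted p = 5.12e-10). Lin7a, a scaffold protein of the presynaptic membrane, was higher at 0.89 and 0.78, and Cadps2, the close relative of Cadps, at 0.62 and 0.50, so Cadps and Cadps2 went in opposite directions. Syp, synaptophysin, the most used marker of synaptic vesicles, stood at -0.18 ± 0.083 and -0.18 ± 0.080 without passing (adjusted p = 0.136 and 0.121).

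If reads were counted over whole gene spans without strand, which was inferred from the values and is stated by no label, some release genes can share reads with other genes. The percentages are the other gene's whole value over that of the release gene, and are an upper limit on shared reads where the genes overlap only in part, as for Syt12, Syn1 and Syt4. Gm11512, in an intron of Stxbp4, amounts to 97.7% of the Stxbp4 value, and Timp3, a protease inhibitor gene on the opposite strand within Syn3, to 91.0% of the Syn3 value. Other large values of overlapping genes were A930001C03Rik with Syt12 (59.3%), Araf with Syn1 (55.4%), Gm16871 with Syt4 (35.7%) and AC153907.1 with Syn2 (29.9%). The spans of Stx19, Snap29 and Stx18 meet those of the more abundant Arl13b, Pi4ka and Nsg1. For 52 of the 69 genes the largest such percentage was under 10%. Of these, 6 were higher and 8 lower in wild-type DMS, or 11.5% and 15.4%, beside 8.54% and 8.72% of all genes. In Foxp2hum/hum DMS 5 were higher and 10 lower, or 9.62% and 19.2%, beside 9.33% and 8.82% of all genes. After the nested reads were subtracted, Syn3 had medians of 111 normalised reads in wild-type DMS and 132 in DLS, against 1499 and 1455 before.

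The comparisons of genotype asked whether the humanised allele altered these transcripts within a region. None of the 69 genes passed in DMS or in DLS, and 0% of all 19561 genes did (limma). At an unadjusted p under 0.05 there were 3 release genes in DMS and 4 in DLS, which is 4.35% and 5.80% of the set beside 3.58% and 4.31% of all genes. These counts rested on single libraries: in DMS they were 1 of the set and 453 of all genes without library 72, against 700 with it. In DLS they were 11 of the set and 1821 of all genes without library 51, 5 and 1642 without library 94, and 9 and 1354 without library 43, against 843 with all libraries. Over all libraries left out in turn, the set's count ran from 0 (without library 64) to 6 in DMS and from 1 to 11 in DLS. edgeR and DESeq2 on whole reads also called 0 of the 69 in either region. The median log2 difference, Foxp2hum/hum minus wild-type, was -0.049 in DMS and -0.052 in DLS for the set, against 0.00036 and -0.0087 for all genes. By sign, 46 genes were on the lower side in DMS and 47 in DLS, and 41 in both. The 2 comparisons share no library, but came from 1 fit, and libraries of the 2 regions may come from the same animals. The genes also vary together between libraries (below), so they are not separate observations. For 57 genes in each region the 95% interval lay within 1.5-fold either way. These counts by sign and interval were not taken over all genes.

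Vamp2 had the same small difference in both regions: -0.14 ± 0.068 (SE) in DMS and -0.14 ± 0.068 in DLS (adjusted p = 0.955 and 0.843, limma). Its medians were 10614 normalised reads against 11227 in DMS and 12191 against 12957 in DLS, and the ranges overlapped. Cplx1 stood at -0.14 ± 0.072 in DMS and -0.14 ± 0.072 in DLS, and Syt14 at -0.48 ± 0.22 and -0.42 ± 0.22. Syn1 stood at -0.24 ± 0.13 in DMS, Stxbp6 at -0.37 ± 0.15 in DMS, and Syt12 at -0.16 ± 0.081 and Unc13b, a priming factor, at -0.31 ± 0.16 in DLS. Mitochondrially encoded genes took a median of 22.1% of reads in Foxp2hum/hum DMS against 21.5% in wild-type, and 24.4% against 22.2% in DLS. With that share as a covariate the log2 difference of Cplx1 was -0.10 in both regions.

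On the higher side, Stx2 stood at 0.17 ± 0.092 in DMS and 0.28 ± 0.092 in DLS (adjusted p = 0.955 and 0.843, limma). Its lowest, median and highest values in DLS were 123.3, 149.8 and 176 normalised reads in Foxp2hum/hum and 75.5, 121 and 147 in wild-type, and the ranges overlapped. Vamp7, a SNARE of late endosomes and lysosomes, stood at 0.23 ± 0.14 and 0.25 ± 0.14. In DMS, Syt16, a synaptotagmin that does not bind calcium, stood at 0.13 ± 0.069, Stx18 at 0.11 ± 0.061 and Stx5a at 0.18 ± 0.11. In DLS, Stxbp2, or Munc18-2, the form of blood and epithelial cells, stood at 0.24 ± 0.12, Vamp8, a SNARE of secretory cells, at 0.35 ± 0.19, and Stxbp4, beside Gm11512 at 97.7% of its value, at 0.25 ± 0.14. None of these passed. With the reads of Gm11512 subtracted, the log2 difference of Stxbp4 in DLS was -0.055 ± 0.18 (SE).

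**Figure D4:**
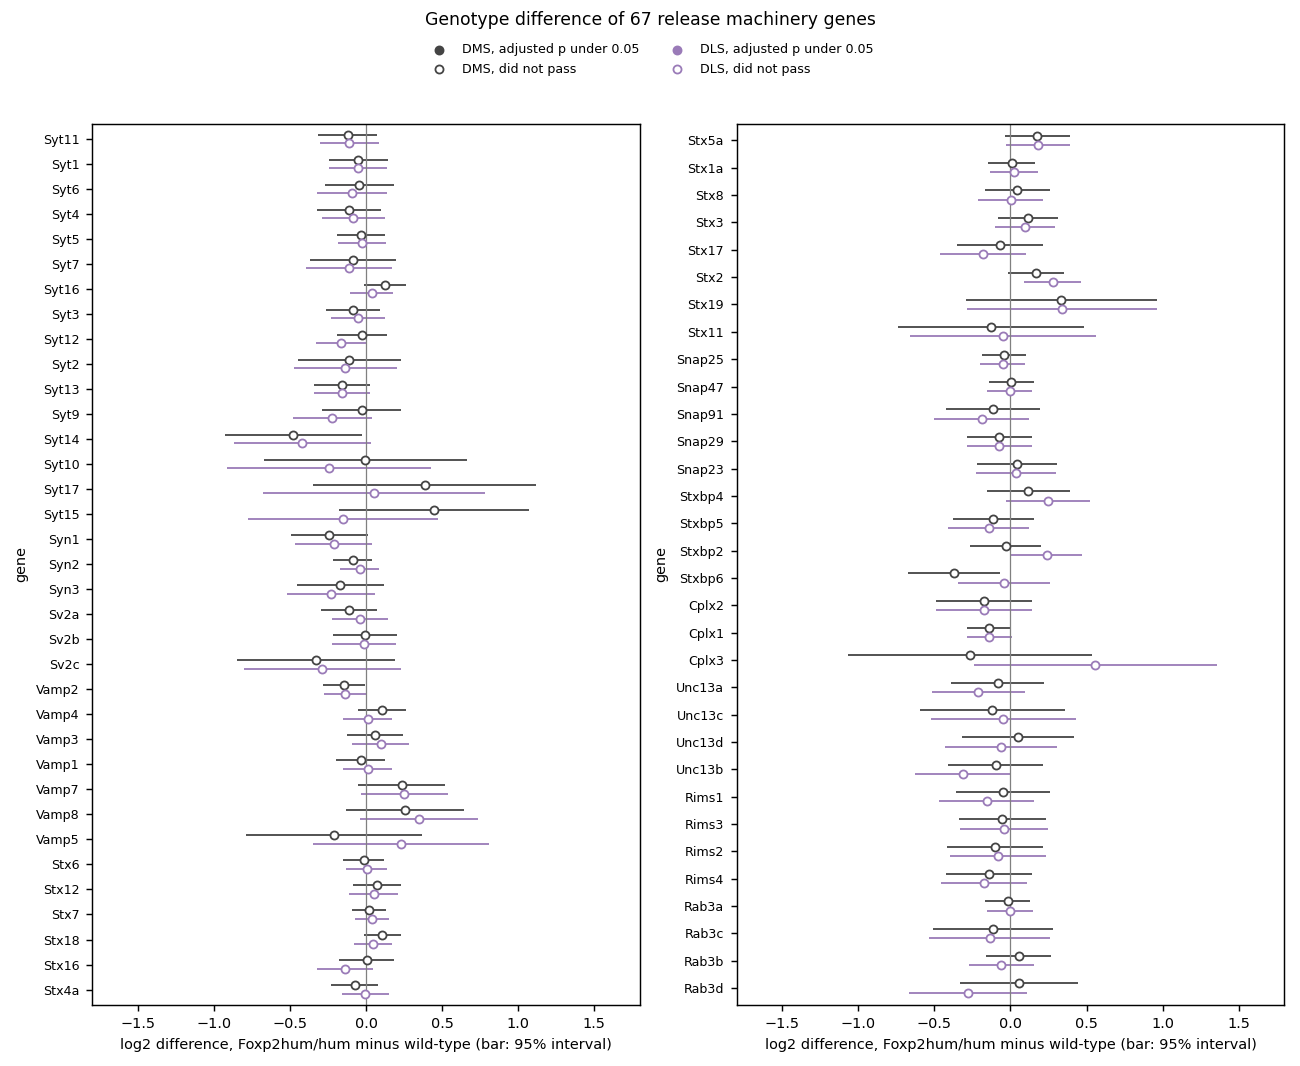
Log2 difference, Foxp2hum/hum minus wild-type (horizontal axis), of 67 of the genes in DMS (dark) and DLS (purple); bars are 95% intervals from limma, and open points did not pass an adjusted p of 0.05. No gene passed, and the points lean slightly to the left, with medians over the whole set of -0.049 in DMS and -0.052 in DLS.

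The interaction of genotype and region was tested in the same fit, as the regional difference (DMS minus DLS) in Foxp2hum/hum minus that in wild-type. No release gene passed and 0% of all genes did (limma). At an unadjusted p under 0.05 there were 0 of the 69, beside 321 of all genes, or 1.64%. At so low a share, a count of 0 is no trait of the set. edgeR and DESeq2 called 0 as well. For 53 genes the 95% interval of the interaction lay within 1.5-fold, a count not taken over all genes. The genes that were called in 1 genotype alone had interactions of -0.33 ± 0.21 (SE) for Stxbp6, -0.11 ± 0.13 for Stx2, 0.12 ± 0.15 for Rab3b, 0.33 ± 0.51 for Syt17, -0.82 ± 0.56 for Cplx3, -0.059 ± 0.32 for Syt14, -0.072 ± 0.11 for Stx4a and -0.0047 ± 0.097 for Vamp2. The other named genes, none with a p under 0.05, were Stxbp2 at -0.27 ± 0.17, Syt15 at 0.60 ± 0.44, Rab3d at 0.33 ± 0.27, Syt12 at 0.14 ± 0.11, Stx16 at 0.14 ± 0.13, Syt9 at 0.20 ± 0.18 and Vamp5 at -0.44 ± 0.41. The adjusted p of the interaction rounded to 1 for each of these 15 genes. Syt10, the gene with the widest regional difference, had an interaction of 0.24 ± 0.47, with a 95% interval of -0.71 to 1.19.

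Within the groups, the release genes varied between libraries in 2 opposed blocks. After removal of the group means over the 46 libraries, the 2346 pairs had a median Pearson r of 0.042, against -0.00027 for pairs of all genes tested. These correlations are over libraries that share tissue handling and depth, and are given as a description with no test. Close pairs were Snap91 with Syt11 (r = 0.94), Rab3c with Sv2c (r = 0.93) and Rab3c with Unc13c (r = 0.91). Members of 1 family could differ: r with Vamp2 was 0.15 for Rab3a, -0.081 for Rab3b and 0.18 for Rab3d, and -0.39 for Unc13d. Opposed pairs were Stxbp2 with Syt11 (r = -0.81) and Stxbp2 with Stxbp5 (r = -0.81). With Vamp2, r was 0.83 for Syn1, 0.76 for Syt7 and 0.74 for Cplx1, and -0.63 for Vamp7. Snap25, at r = 0.38 with Vamp2, and Vamp1, at r = -0.030, followed the first block little or not at all.

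The blocks followed the mitochondrial read share of the libraries. The correlation with that share ran from -0.73 for Sv2a to 0.76 for Stxbp4, though Gm11512 amounts to 97.7% of the Stxbp4 value. It was below 0 for 44 of the 69 genes, with a median of -0.23. The same was not computed over all genes, so these values are not shown to be particular to the set. Unc13a had r = -0.62 and Syt2 -0.62, while Stxbp2 had 0.65, Stx11 0.62 and Stx8 0.57. With the share as a covariate, 28 genes passed between the regions in wild-type, 8 higher and 20 lower in DMS, and 24 in Foxp2hum/hum, 6 higher and 18 lower. These are 11.6% and 28.99% of the set in wild-type, beside 12.6% and 11.7% of all genes in the same fit, and 8.70% and 26.1% in Foxp2hum/hum, beside 12.1% and 11.2%. The median SD within groups was 0.31 on the log2 scale for the set and 0.36 for all genes. It was 0.15 for Vamp2 and 0.16 for Snap25 but 0.65 for Sv2c, 0.83 for Syt10 and 0.96 for Cplx3.

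**Figure D5:**
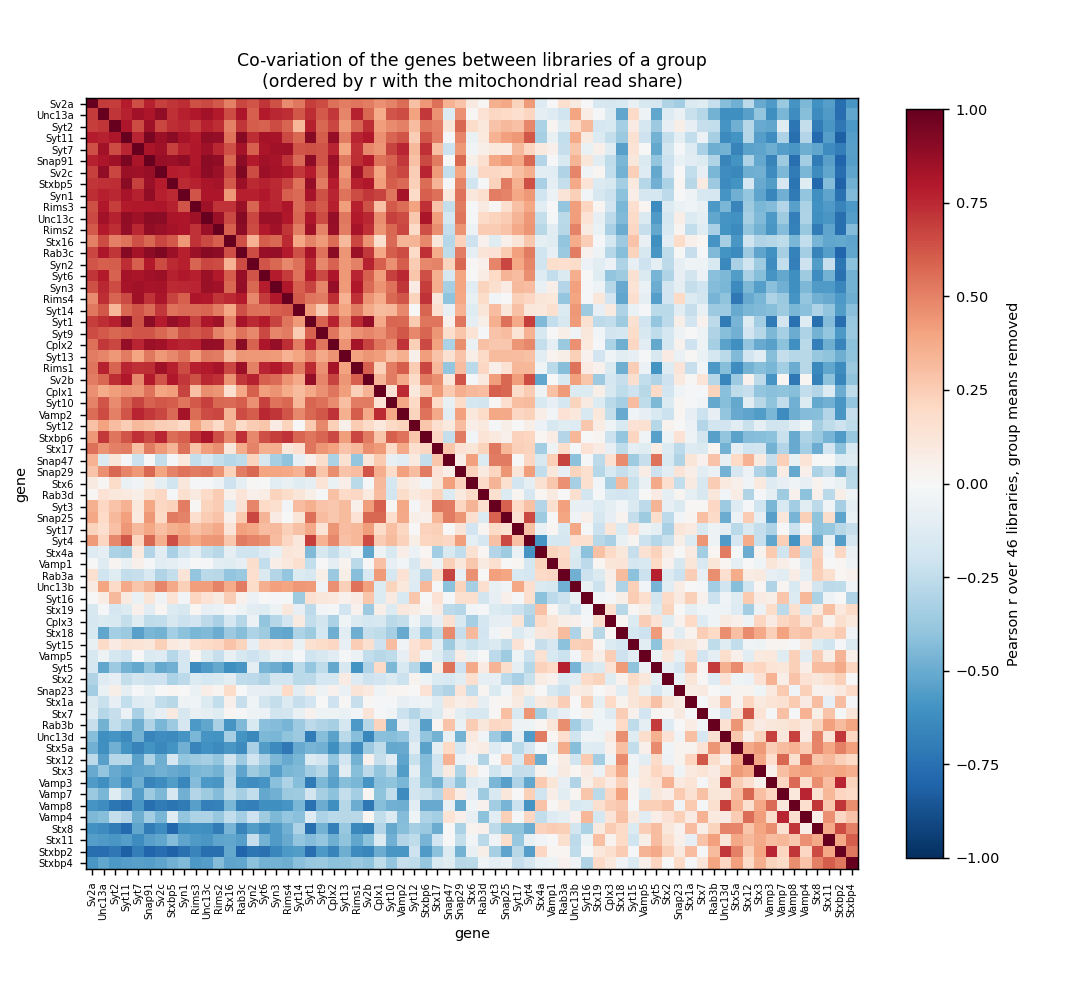
Pearson r (colour scale from -1 to 1) between log2 levels of each pair of 67 of the genes over 46 libraries after removal of the 4 group means, with genes ordered by their r with the mitochondrial read share. A large red block at the upper left, from Sv2a onward, opposes a smaller block at the lower right that includes Stxbp2 and Stxbp4. Gm11512 amounts to 97.7% of the Stxbp4 value. Genes such as Vamp1 and Stx6 lie in a pale band between the blocks.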

How the data were processed

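RNA was sequenced from laser-captured DMS and DLS of wild-type and Foxp2hum/hum mice, with 15 ng of total RNA per sample, per the labels' protocols. The submitters' processing notes name mm9, TopHat 1.4.1, bedtools and DESeq. The deposited signal of a gene is its read count over the library's size factor, and multiplying back gave whole reads for 100% of values (tolerance 0.01). In all 46 libraries the genes nested within a release gene had no more reads than it, as when whole spans are counted without strand.

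The test used log2(value + 1) and the 19561 genes whose mean reached 10, so fold changes of low genes are understated. limma 3.58.1 in R 4.3.3 fitted 4 group means over all libraries, which share 1 estimate of the spread per gene, with eBayes (trend). Two-sided p-values were adjusted by Benjamini-Hochberg, with a threshold of 0.05. The procedure was tested on simulated data. Alternatives included edgeR 4.0.16 and DESeq2 1.42.0 on recovered reads. Subtraction of nested genes was chosen after seeing the data. Positions and overlaps come from GENCODE M1 (mm9), which held 68 of the 69 genes (not Vamp7). Figures were drawn with matplotlib 3.10.9.

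The genes named were Vamp2, the 10 called genes of smallest p in each direction for each region contrast, the 5 of smallest p in each direction elsewhere, the 2 of highest mean per family and those beside the limit of 10. Snap91, Stx4a, Sv2c, Syn3, Syt4, Syt7, Syp, the ratio pairs and the genes listed to complete a family were named outside this rule after their values were seen. Of the other pathway genes, at most 4 in each direction were named. The members, lists and rules were chosen with earlier results of these data known. Values of 2 genes of the set are not reported here, though counts over the set hold them, and the figures of all genes show the other 67.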

Additional observations from a re-analysis of the deposited data

How the results depend on the processing

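Of 69 genes, the count called between regions in wild-type (16) was 10 with quantile normalisation (4 higher, 6 lower in DMS) and 28 with the mitochondrial share as a covariate (8 and 20). Other alternatives gave 12 to 23 in wild-type and 12 to 24 in Foxp2hum/hum (18), with 14 in the latter by quantile normalisation. The ends of these ranges came with the Ttr covariate and with array weights, where the shares of all genes moved too. With Ttr, 6.82% of all genes were higher and 7.27% lower in wild-type DMS, and 5.88% and 5.77% in Foxp2hum/hum. With array weights these were 12.04% and 11.35%, and 11.8% and 11.47%. The main fit gave 8.54% and 8.72%, and 9.33% and 8.82%. The swing between these settings is therefore not particular to the set. Leaving out 1 library at a time gave 14 to 19 called genes of the set in wild-type and 15 to 19 in Foxp2hum/hum. Counts of genotype and interaction calls were 0 under every alternative run, single libraries left out included (0 to 0). For the genes named in the regional contrasts, 254 of 272 values under an alternative kept call and direction in wild-type and 281 of 304 in Foxp2hum/hum. The other 18 and 23 lost the call, and none reversed. Syt10, Syt2, Syt3, Syt5, Syt13, Stx6 and Vamp1 kept their calls in both genotypes under each of 17 alternatives and without each single library. The alternatives counted include a looser threshold of 0.10 on the main fit, under which no call can be lost. They also include the subtraction of nested genes, which among the called genes changed the values of Vamp1 alone. The cause of the differences between settings was not tested. No paired analysis was possible because the libraries carry no replicate numbers or animals shared between groups. Genes read at under 20 normalised reads, such as Cplx3, Stx11 and Stx19, had wide intervals, and small differences in them were not detectable at this depth.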
